A study of Mus musculus with 6 samples.

Results

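Cyp4f18 and Slco2b1 were examined in bone marrow-derived macrophages (BMDMs) beside 8 genes of leukotriene and prostaglandin synthesis: Pla2g4a, Alox5, Alox5ap, Lta4h, Ltc4s, Ptgs1, Ptgs2 and Tbxas1. These are the 10 rows of the deposited expression table that bear the symbols, out of 35360 genes that could be read from it. Cyp4f18 and Slco2b1 were chosen because their levels were among those that differed most downwards between the groups compared here, and the other 8 because of their roles. The cells were grown with macrophage colony-stimulating factor from the femoral marrow of C57BL/6 mice, and the age and number of the donor animals were not given for these cultures. The Ctrl group held 3 libraries of untreated BMDMs, and the ZA group 3 libraries of BMDMs taken 12 h after addition of zoledronic acid (ZA), a nitrogen-containing bisphosphonate used against bone resorption; the concentration was not given for these libraries. The sources do not say whether the 3 libraries of a group came from separate animals, so that the p-values measure the spread between these libraries.

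Eicosanoids are signalling lipids made from arachidonic acid, which phospholipases cut from membrane phospholipids. The 5-lipoxygenase branch turns it into leukotriene A4 and then into leukotriene B4, a neutrophil attractant, or into the cysteinyl leukotrienes. The cyclooxygenase branch turns it into prostaglandin H2, from which the prostaglandins and thromboxane A2 are formed. Macrophages make products of both branches, and they also take up and inactivate them. Cyp4f18 is a cytochrome P450 that hydroxylates leukotriene B4, a step in its inactivation. Slco2b1 encodes an organic anion transporting polypeptide, a membrane carrier with a broad range of substrates, steroid sulfates and prostaglandins among them.

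The promoter sequences of Cyp4f18 and Slco2b1 are shown because these are the genes that were chosen for their lower levels in ZA. Of the 10 genes, 9 had an entry in the RefSeq promoter table for GRCm38.p6, with 12 windows in all. The windows shown are the 250 bases before each annotated start site, written 5′ to 3′ in the direction of transcription. Capitals mark the letters that matched a CCAAT box or a GC box on either strand. The sources do not say which of the 3 Slco2b1 starts was in use in these cells.
Cyp4f18, chr8:72009627-72009876, minus strand: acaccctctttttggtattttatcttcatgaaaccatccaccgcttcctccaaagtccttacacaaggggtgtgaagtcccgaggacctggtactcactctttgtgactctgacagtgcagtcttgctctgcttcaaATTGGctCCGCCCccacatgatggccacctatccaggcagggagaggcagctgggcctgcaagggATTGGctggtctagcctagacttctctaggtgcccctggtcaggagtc
Slco2b1, outermost start, chr7:99711341-99711590, minus strand: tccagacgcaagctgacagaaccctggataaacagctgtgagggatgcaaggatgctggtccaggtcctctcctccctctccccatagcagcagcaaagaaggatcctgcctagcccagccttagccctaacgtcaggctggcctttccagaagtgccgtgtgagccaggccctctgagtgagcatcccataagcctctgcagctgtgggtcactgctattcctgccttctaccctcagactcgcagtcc
Slco2b1, middle start, chr7:99706843-99707092, minus strand: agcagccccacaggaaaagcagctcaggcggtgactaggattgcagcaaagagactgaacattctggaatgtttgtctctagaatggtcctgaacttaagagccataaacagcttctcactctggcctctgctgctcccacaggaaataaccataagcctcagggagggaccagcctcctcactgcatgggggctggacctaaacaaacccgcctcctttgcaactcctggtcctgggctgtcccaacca
Slco2b1, innermost start, chr7:99695810-99696059, minus strand: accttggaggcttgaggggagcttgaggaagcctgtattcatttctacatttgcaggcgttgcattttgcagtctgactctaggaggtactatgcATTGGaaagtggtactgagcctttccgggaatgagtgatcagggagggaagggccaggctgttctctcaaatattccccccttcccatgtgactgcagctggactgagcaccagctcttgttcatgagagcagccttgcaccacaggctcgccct

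In these windows 7 motifs were searched on both strands. Promoter elements among them were the CCAAT box with these letters, the GC box with the letters GGGCGG and the TATA box with the letters TATAAA. Motifs of myeloid factors were TGANTCA for AP-1 and TTNNGCAA for C/EBP, together with GAGGAAGT for PU.1. The sterol regulatory element was searched as TCACNCCAC. No match of a motif overlapped a match of another motif in the windows shown. The Cyp4f18 window held CCAAT on the reverse strand at 2 places, which began 113 and 48 bases before the start site, and a GC box on the reverse strand 106 bases before it. At Slco2b1, CCAAT was found once, in the window of the innermost start, 155 bases before that start. CCAAT was present in 33.8% and GGGCGG in 32.7% of the 32851 promoter windows of the table, so that these letters are common. Lta4h, whose levels overlapped between the groups, held CCAAT at 2 places, and Alox5 and Ptgs2 held a GC box. The TATA letters, in 12.4% of all windows, were found at Pla2g4a and Tbxas1. Ptgs1 had the PU.1 letters, which 2.44% of all windows held, Tbxas1 had AP-1 letters (6.75% of all windows) and Ptgs2 had C/EBP letters (9.56% of all windows). The sterol regulatory element, which was in 1.05% of all windows, was not found in these letters in the windows of the 9 genes. These matches describe the sequence and say nothing about binding.

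Expression is given as FPKM, the fragments of a gene divided by its length and by the library's total in the deposited table. The lengths behind these values differed from the exon lengths of GENCODE M21, from 0.339 times for Lta4h to 4.15 times for Tbxas1 among the 10 genes, so that the order of the 10 genes is given on both lengths. Other orders are on the FPKM scale unless exon lengths are named. Values on exon lengths divide the fragments counted over the deposited lengths by the exon bases. Where the lengths differ, such values and their ratios may be too high or too low, and neither order is settled. The length of a gene is the same in every library, so that it cancels from the percent differences between the groups. It does enter the log2(FPKM + 1) scale and the minimum mean FPKM used for testing, and a longer length makes the fold change on that scale smaller. The libraries held between 41230600 and 42155808 fragments. Macrophage markers were high in every library, with Csf1r between 767 and 848 FPKM and Adgre1 between 526 and 593 FPKM. Ly6g, which marks neutrophils, was listed at 0 in all 6 libraries, as were the mast cell proteases Mcpt4, Tpsb2 and Cma1, and the summed levels of 6 lymphocyte and 6 dendritic cell markers stayed under 0.83 FPKM. Other neutrophil and mast cell markers were detected. S100a9 had 13.3 to 23.1 FPKM and S100a8 had 8.05 to 12.5 FPKM over the libraries, and Kit had 1.57 to 1.94 FPKM. Marker lists of other cell types that had lower values in ZA are given beside the results they touch. In bulk RNA, fewer cells of a type and less RNA per cell cannot be told apart. Of the 9794 genes whose mean FPKM was 1 or more, which were tested with limma on log2(FPKM + 1), 36 (0.368%) passed an adjusted p-value of 0.05 (Benjamini-Hochberg), 20 (0.204%) higher and 16 (0.163%) lower in ZA. This count was 1 when Ctrl 1 or Ctrl 2 was left out, 6 without Ctrl 3, 0 without ZA 2 and 4 without ZA 3.

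On the deposited FPKM scale the levels of the 10 genes covered a wide range. Alox5ap stood highest, with a mean over the 6 libraries of 231 ± 7.62 FPKM (SD, n = 6), above 97.7% of the genes tested. Lta4h followed with 36.9 ± 1.74 FPKM, Cyp4f18 with 9.95 ± 1.49 FPKM and Pla2g4a with 7.72 ± 0.307 FPKM. Ptgs1 had 6.94 ± 0.254 FPKM, Ltc4s 5.196 ± 0.967 FPKM, Slco2b1 4.02 ± 0.619 FPKM and Tbxas1 3.84 ± 0.134 FPKM. Alox5 and Ptgs2 were lowest, with 0.967 ± 0.105 and 0.348 ± 0.122 FPKM. Neighbours in this order whose ranges over the 6 libraries overlapped were Pla2g4a and Ptgs1, Ltc4s and Slco2b1, and Slco2b1 and Tbxas1. On the exon lengths of GENCODE M21 Alox5ap remained first with 165 ± 5.44 fragments per kilobase, scaled to the library total in the same way, and Alox5 and Ptgs2 remained last with 0.732 ± 0.0793 and 0.333 ± 0.116. The order between them changed, with Cyp4f18 at 16.8 ± 2.52, Tbxas1 at 15.9 ± 0.557, Lta4h at 12.5 ± 0.589, Ptgs1 at 8.76 ± 0.320, Pla2g4a at 3.69 ± 0.147, Ltc4s at 3.60 ± 0.670 and Slco2b1 at 3.57 ± 0.5496. Neighbours in the exon-length order whose ranges overlapped were Cyp4f18 and Tbxas1, Pla2g4a and Ltc4s, and Ltc4s and Slco2b1. The length behind the FPKM of Tbxas1 was 37767 bases beside 9094 exon bases, and its low FPKM went with 5771 to 6256 fragments a library.

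**Figure D1:**
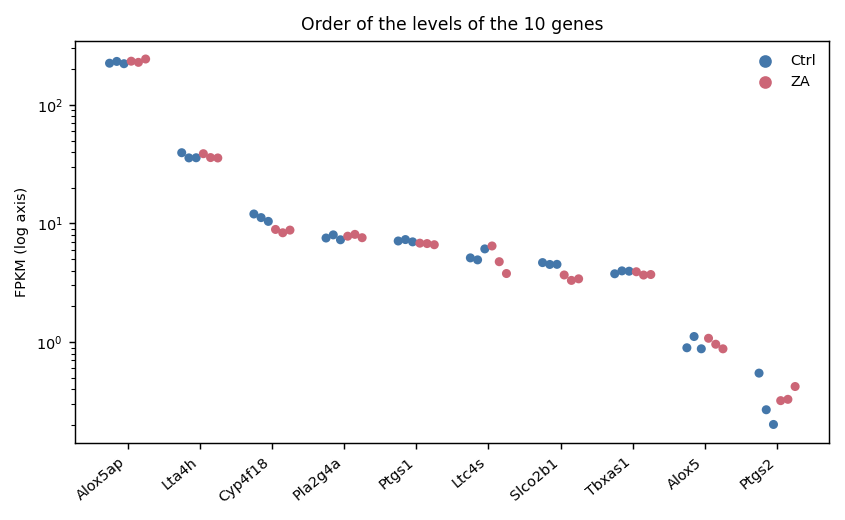
FPKM of the 10 genes in each library on a log axis, ordered by the mean over the 6 libraries. Blue points are the 3 Ctrl and red points the 3 ZA libraries; the genes run from Alox5ap, above 222 FPKM, to Ptgs2, below 0.55 FPKM.

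Cyp4f18 was lower in all ZA libraries than in all Ctrl libraries. It had 12.02, 11.21 and 10.4 FPKM in Ctrl 1, 2 and 3 and 8.91, 8.35 and 8.79 FPKM in ZA 1, 2 and 3. The mean was 11.2 ± 0.804 FPKM in Ctrl and 8.68 ± 0.295 FPKM in ZA (SD, n = 3), a difference of -22.6% of the Ctrl mean. The 2 groups did not overlap, and the Ctrl libraries differed among themselves more than the ZA libraries did. The values rest on 1366 to 1573 fragments in Ctrl and 1090 to 1164 in ZA, for which counting alone gives an SD of 3.03% at the lowest library. The log2 fold change on the scale of log2(FPKM + 1) was -0.33 (SE 0.05). Because the gene was chosen for this difference, the values are a description without a test.

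The other P450 genes of the family gave other values. Cyp4f13 had 11.01 ± 0.679 FPKM in Ctrl and 11.3 ± 0.840 FPKM in ZA, with a log2 fold change of 0.03 (SE 0.06). Cyp4f16 had 14.8 ± 0.499 and 15.5 ± 0.561 FPKM, with a log2 fold change of 0.06 (SE 0.04). The groups overlapped for both genes. Cyp4f14, Cyp4f15 and Cyp4f40 were listed at 0 in all 6 libraries, and Cyp4f17, Cyp4f37 and Cyp4f39 stayed below 0.86 FPKM. Within a library Cyp4f18 supplied 30.6%, 29.8% and 28.3% of the summed FPKM of the family in Ctrl 1, 2 and 3 and 24.4%, 23.5% and 23.9% in ZA 1, 2 and 3. These shares rest on the deposited lengths, which were 1.69 times the exon length for Cyp4f18 and 0.443 times for Cyp4f13. Over the 6 libraries the mean level of Cyp4f18 was 3.41 times that of Cyp4f13 on exon lengths, while the means on the FPKM scale were 9.95 and 11.1. Exons that make up 9.76% of the Cyp4f18 gene model overlap Zfp961 on the opposite strand, and since it is not stated whether counting used the strand, reads of this stretch cannot be assigned.

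Slco2b1 was likewise lower in all ZA libraries. Its levels were 4.68, 4.51 and 4.52 FPKM in Ctrl 1, 2 and 3 and 3.68, 3.31 and 3.42 FPKM in ZA 1, 2 and 3. The groups did not overlap, and the lowest Ctrl library was well above the highest ZA library. The mean was 4.57 ± 0.0933 FPKM in Ctrl and 3.47 ± 0.190 FPKM in ZA (SD, n = 3), a difference of -24.1% of the Ctrl mean, with 993 to 1032 fragments in Ctrl and 729 to 803 in ZA. The log2 fold change was -0.32 (SE 0.04), again without a test because of the choice. Among all 9794 genes tested, Cyp4f18 stood at place 35 and Slco2b1 at place 38 from the most negative log2 fold change, which restates the choice. Exons that make up 9.21% of the Slco2b1 gene model overlap genes on the opposite strand.

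Among other carriers, 2 organic anion transporters of the same family had higher values in ZA. Slco4a1 had 11.6, 9.49 and 8.86 FPKM in Ctrl and 10.5, 11.9 and 14.1 FPKM in ZA, and Slco3a1, which is known to carry prostaglandins, had 2.05, 1.72 and 1.92 FPKM in Ctrl and 2.02, 2.32 and 2.52 FPKM in ZA. The groups overlapped for both. Their log2 fold changes were 0.26 (SE 0.11, adjusted p = 0.398) and 0.18 (SE 0.07, adjusted p = 0.354), which did not pass the adjusted threshold of limma. Without ZA 3 that of Slco4a1 was 0.16, and over the libraries left out in turn it went up to 0.37, without Ctrl 1. Slco2b1 made up 25.1%, 28.0% and 29.1% of the summed FPKM of the listed Slco genes in Ctrl 1, 2 and 3 and 22.1%, 18.6% and 16.7% in ZA 1, 2 and 3. Slco2a1, the prostaglandin transporter, stayed between 0.183 and 0.381 FPKM. Of the ABC exporters, Abcc1, which exports leukotriene C4, had 17.8 ± 0.928 FPKM in Ctrl and 17.8 ± 0.404 FPKM in ZA. Abcc3, the highest carrier of the list, had 31.6 ± 1.54 and 30.5 ± 0.824 FPKM (log2 fold change -0.05, SE 0.04, adjusted p = 0.644).

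**Figure D2:**
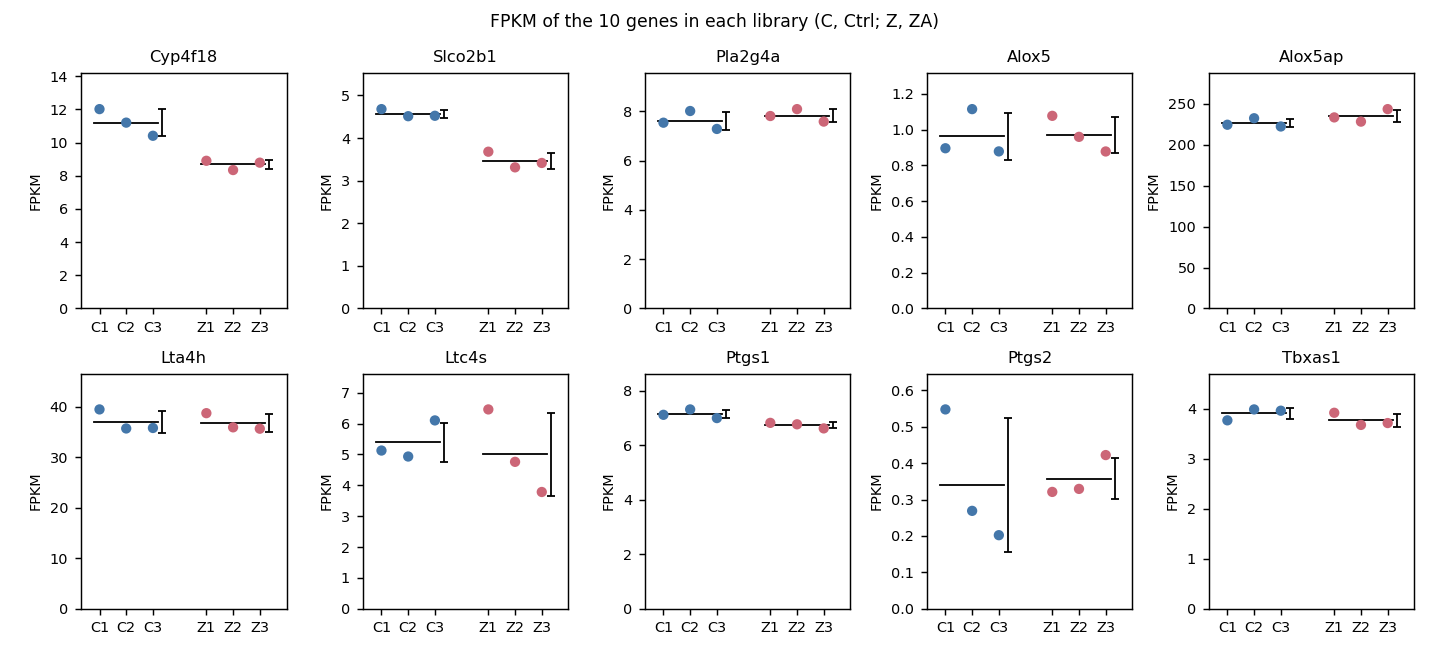
FPKM of each of the 10 genes in the 3 Ctrl (C, blue) and 3 ZA (Z, red) libraries, each panel with its own linear axis from 0. Lines are group means and bars the SD of 3 libraries; the groups are apart for Cyp4f18, Slco2b1 and Ptgs1 and overlap for the other 7 genes.

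The levels of the 8 synthesis genes differed little between the groups. Of these, 6 reached a mean FPKM of 1 and were tested, while Alox5 and Ptgs2 did not. In limma 0 of the 6 had an adjusted p-value under 0.05, beside 0.368% of all genes tested. An unadjusted p-value under 0.05 was found for 0 of the 6, beside 12.3% of all genes tested. With voom on the recovered fragments, 0 of the 6 were called as well, beside 125 of all 9794 genes tested. The median log2 fold change of the 6 was -0.02, and that of all genes tested was 0.01.

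Pla2g4a, the cytosolic phospholipase A2 that frees arachidonic acid, had 7.54, 8.02 and 7.29 FPKM in Ctrl and 7.81, 8.09 and 7.59 FPKM in ZA. The groups overlapped, with a log2 fold change of 0.04 (SE 0.04, adjusted p = 0.773). Pla2g6, the calcium-independent enzyme, was lower in level, with 1.59 ± 0.173 FPKM in Ctrl and 1.42 ± 0.0743 FPKM in ZA. On exon lengths Pla2g6 was at 1.44 ± 0.143 and Pla2g4a at 3.69 ± 0.147 (SD, n = 6). The secreted phospholipases Pla2g5, Pla2g2d and Pla2g10 stayed below 0.2 FPKM in every library, while a further member, Pla2g2e, had 0.650 to 1.184 FPKM.

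The machinery of leukotriene synthesis was unequal in level. Alox5, the 5-lipoxygenase that starts the branch, had 0.895, 1.11 and 0.878 FPKM in Ctrl and 1.08, 0.959 and 0.877 FPKM in ZA, from 114 to 144 fragments a library. The groups overlapped and their means were 0.962 ± 0.132 and 0.971 ± 0.1001 FPKM. Alox5ap, the membrane protein that presents arachidonic acid to it, had 224, 232 and 222 FPKM in Ctrl and 233, 228 and 244 FPKM in ZA. Within a library Alox5ap was 209 to 278 times as high as Alox5, with overlapping ranges in Ctrl and ZA, and the ratio of their means was 225 on exon lengths. The log2 fold change of Alox5ap was 0.05 (SE 0.03, adjusted p = 0.4996), and 13.3% of its exon bases overlap a gene on the opposite strand.

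Downstream of leukotriene A4, Lta4h, the hydrolase that makes leukotriene B4, was above Ltc4s, the synthase of leukotriene C4. Lta4h had 39.5, 35.7 and 35.8 FPKM in Ctrl and 38.8, 35.9 and 35.7 FPKM in ZA, and number 1 was highest in each group. Its log2 fold change was -0.01 (SE 0.05, adjusted p = 0.965). Ltc4s had 5.13, 4.93 and 6.10 FPKM in Ctrl and 6.46, 4.76 and 3.78 FPKM in ZA. The ZA libraries of Ltc4s held both its highest and its lowest value, so that the groups overlapped, with a log2 fold change of -0.11 (SE 0.15, adjusted p = 0.804). Without ZA replicate 3 the log2 fold change of Ltc4s was 0.04. The counts behind it were low, 112 to 187 fragments a library, and 26.4% of its exon bases overlap a gene on the opposite strand. Lta4h was 5.87 to 9.43 times as high as Ltc4s within a library on the FPKM scale, and the ratio of their means was 3.47 on exon lengths.

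Of the cyclooxygenases, Ptgs1 had the higher level. Ptgs1, the constitutive cyclooxygenase, had 7.12, 7.32 and 6.998 FPKM in Ctrl and 6.82, 6.77 and 6.62 FPKM in ZA. The groups did not overlap, ZA being lower, as for 6.76% of all genes tested. The difference was -5.69% of the Ctrl mean and did not pass the test (log2 fold change -0.07, SE 0.03, adjusted p = 0.441). Ptgs2, the inducible cyclooxygenase that inflammatory stimuli raise in macrophages, had 0.547, 0.269 and 0.202 FPKM in Ctrl and 0.321, 0.329 and 0.422 FPKM in ZA. The ZA values lay within the range of the Ctrl values, which differed 2.71-fold between the lowest and the highest library, from 37 to 100 fragments. Ptgs1 was 13 to 35 times as high as Ptgs2 within a library on the FPKM scale, and the ratio of their means was 26.3 on exon lengths. Fitted without the filter on low levels, Ptgs2 had a log2 fold change of 0.03 (SE 0.10, adjusted p = 0.953) and Alox5 of 0.01 (SE 0.06, adjusted p = 0.999).

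Tbxas1, the thromboxane A2 synthase, had 3.77, 3.98 and 3.96 FPKM in Ctrl and 3.92, 3.67 and 3.71 FPKM in ZA. The groups overlapped, with a log2 fold change of -0.04 (SE 0.04, adjusted p = 0.7404). Of the other enzymes that act on prostaglandin H2 or its products, Akr1b3 had the highest FPKM, with 85.4 ± 1.28 FPKM in Ctrl and 85.1 ± 2.24 FPKM in ZA (log2 fold change -0.01, SE 0.03, adjusted p = 0.956). Hpgds, the hematopoietic prostaglandin D2 synthase, had 69.5 ± 1.78 and 67.8 ± 3.28 FPKM. On exon lengths Hpgds, at 45.7 ± 1.69, was above Akr1b3, at 14.3 ± 0.274 (SD, n = 6). The inducible prostaglandin E2 synthase Ptges stayed between 0.551 and 0.765 FPKM, whereas Ptges3 had 27.1 ± 0.878 and 28.1 ± 0.122 FPKM (log2 fold change 0.05, SE 0.03, adjusted p = 0.510). Cbr1, a carbonyl reductase, had 27.5 ± 0.624 and 29.2 ± 1.54 FPKM (log2 fold change 0.08, SE 0.04, adjusted p = 0.478). The prostacyclin synthase Ptgis and the lipocalin-type synthase Ptgds were below 0.06 FPKM in every library. Of the 12 genes of prostanoid synthesis, 8 were tested and 0 had an unadjusted p-value under 0.05 in limma, beside 12.3% of all genes tested. With voom, 0 of the 8 were called, beside 125 of all 9794 genes tested.

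The wider list of eicosanoid genes held 89 genes in 8 roles, of which 47 were tested. Of the 39 tested genes that are not among the 10 above, 10 (25.6%) had an unadjusted p-value under 0.05, 6 higher and 4 lower in ZA, beside 12.3% of all genes tested, 7.49% higher and 4.85% lower. Of these 39, 0 had an adjusted p-value under 0.05 in limma, beside 0.368% of all genes tested. From the same 39, voom on the recovered fragments called Mgll and Cotl1, beside 125 of all 9794 genes tested. At the unadjusted threshold the count is 12 of 47 with Cyp4f18 and Slco2b1, which were chosen for this difference. The median log2 fold change of the 39 was 0.02. For 9 of the 39 genes (23.1%) Ctrl and ZA were apart, 5 higher and 4 lower, beside 18.1% of all genes tested, 11.4% higher and 6.76% lower. The list was written with results of these data known, and these counts, like those by role below, are a description. Each role holds few tested genes. Where the groups of a gene below did not overlap, the same 18.1% of all genes tested stands beside it.

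In arachidonate release 1 of 5 tested genes, Mgll, had an unadjusted p-value under 0.05, beside 12.3% of all genes tested. Mgll, the monoacylglycerol lipase that yields arachidonic acid from 2-arachidonoylglycerol, had 19.03, 19.14 and 18.7 FPKM in Ctrl and 17.6, 16.1 and 14.5 FPKM in ZA. The groups did not overlap, with a log2 fold change of -0.23 (SE 0.06, adjusted p = 0.179). Daglb, the lipase that makes 2-arachidonoylglycerol had the highest FPKM of this role, 66.6 ± 3.06 in Ctrl and 62.4 ± 3.44 in ZA (log2 fold change -0.09, SE 0.05, adjusted p = 0.468), and 24.1% of its exon bases overlap Rac1 on the opposite strand. In reacylation, which returns arachidonic acid to phospholipids, all 8 genes were tested and 1 had an unadjusted p-value under 0.05. This was Acsl5, an acyl-CoA synthetase, with 38.7, 38.1 and 38.4 FPKM in Ctrl and 40.4, 40.4 and 40.6 FPKM in ZA (log2 fold change 0.07, SE 0.02, adjusted p = 0.256). The difference was small but the groups did not overlap. Acsl3 had 5.45 ± 0.0849 and 5.76 ± 0.203 FPKM (log2 fold change 0.07, SE 0.04, adjusted p = 0.519).

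In leukotriene synthesis 2 of 6 tested genes had an unadjusted p-value under 0.05, both lower, beside 4.85% of all genes tested. Cotl1, coactosin-like protein, binds 5-lipoxygenase and also actin, and it was the highest gene of the role with 416, 425 and 414 FPKM in Ctrl and 392, 395 and 383 FPKM in ZA. The groups did not overlap, with a log2 fold change of -0.10 (SE 0.02, adjusted p = 0.110). Mgst3, a microsomal glutathione transferase related to Ltc4s, had 20.2, 20.8 and 21.5 FPKM in Ctrl and 19.4, 19.3 and 18.3 FPKM in ZA (log2 fold change -0.13, SE 0.03, adjusted p = 0.210). Of the 5 other lipoxygenases on the list, Alox12, the platelet-type enzyme, was the 1 that reached the level for testing. It had 5.81, 5.62 and 4.73 FPKM in Ctrl and 4.74, 5.03 and 3.97 FPKM in ZA, and the groups overlapped (log2 fold change -0.20, SE 0.09, adjusted p = 0.412). Beside this value, 7 platelet and megakaryocyte markers summed to 144 to 170 FPKM in Ctrl and 117 to 145 FPKM in ZA, with Pf4 and Ppbp the highest of them. All 6 tested markers had a log2 fold change below 0, as had 4217 of all 9794 genes tested. The part of platelets in the values of Alox12, Ptgs1 and Tbxas1, which platelets also express, was not tested.

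In eicosanoid inactivation 2 of the 6 tested genes other than Cyp4f18 had an unadjusted p-value under 0.05, beside 12.3% of all genes tested. Hpgd, the dehydrogenase that begins the breakdown of prostaglandins, had 33.0, 31.9 and 33.9 FPKM in Ctrl and 35.4, 39.3 and 43.6 FPKM in ZA. All ZA libraries were above the Ctrl libraries, with a log2 fold change of 0.25 (SE 0.07, adjusted p = 0.195). Ptgr1, a reductase that acts on leukotriene B4 and on prostaglandins after Hpgd, had 18.0, 17.8 and 17.7 FPKM in Ctrl and 15.7, 17.2 and 16.8 FPKM in ZA (log2 fold change -0.10, SE 0.04, adjusted p = 0.328). Ptgr2 had 18.9 ± 0.949 and 18.8 ± 0.856 FPKM.

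Among the receptors 2 of 6 tested genes had an unadjusted p-value under 0.05, both higher, beside 7.49% of all genes tested. Ptger4, the EP4 receptor for prostaglandin E2, had the highest FPKM of the receptors on the list, with 8.25, 8.12 and 8.54 FPKM in Ctrl and 9.38, 9.48 and 9.61 FPKM in ZA. The groups did not overlap, with a log2 fold change of 0.17 (SE 0.03, adjusted p = 0.0924). Ptger2, the EP2 receptor, had 2.78 ± 0.189 and 2.68 ± 0.0828 FPKM, and the FPKM ratio of Ptger4 to Ptger2 was 2.995 ± 0.211 in Ctrl and 3.54 ± 0.152 in ZA. The ratio of their means over the 6 libraries was 1.97 on exon lengths. On exon lengths Cysltr1, at 5.42 ± 0.353, was above Ptger4, at 4.45 ± 0.335 (SD, n = 6). Cysltr1, a receptor for cysteinyl leukotrienes, had 5.21, 4.81 and 5.35 FPKM in Ctrl and 5.62, 5.44 and 5.81 FPKM in ZA (log2 fold change 0.12, SE 0.05, adjusted p = 0.369). The leukotriene B4 receptors Ltb4r1 and Ltb4r2 stayed below 0.35 FPKM, and Ptgdr and Oxgr1 were listed at 0 in all 6 libraries. Exons that make up 16.5% of the Ptger4 gene model overlap genes on the opposite strand.

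**Figure D3:**
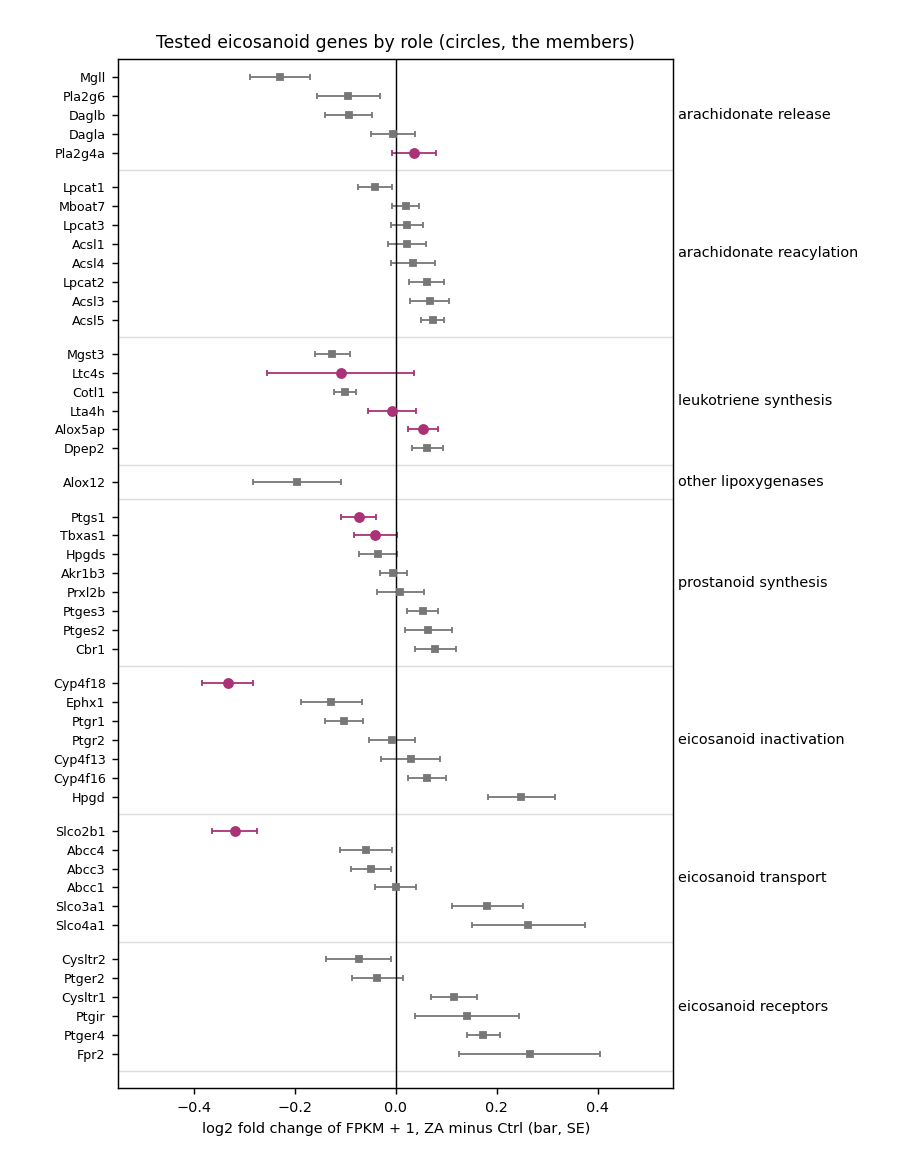
Log2 fold change of the 47 tested eicosanoid genes on the log2(FPKM + 1) scale, ZA minus Ctrl, grouped by role, with the SE as a bar. Circles are the 8 tested genes of the 10 described here; Cyp4f18 at -0.33 and Slco2b1 at -0.32 lie farthest to the left, and Fpr2 at 0.27 and Slco4a1 at 0.26 farthest to the right.

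Tested neutrophil, progenitor and eosinophil markers tended to lower values in ZA. In limma 0 of them passed the adjusted threshold, beside 0.368% of all genes tested. The 6 dendritic cell markers, of which 0 were tested, summed to 0.486 to 0.721 FPKM in Ctrl and 0.577 to 0.828 FPKM in ZA, with overlap. Of 12 neutrophil and myeloid progenitor markers, 6 were tested. All 6 had a log2 fold change below 0, as had 4217 of all 9794 genes tested. An unadjusted p-value under 0.05 was found for 4 of the 6, all lower, beside 4.85% of all genes tested. The 12 markers summed to 51.0, 40.4 and 35.6 FPKM in Ctrl and 33.9, 37.2 and 31.6 FPKM in ZA, and these ranges overlapped. The granule protease gene Prtn3 had 2.14, 2.47 and 2.14 FPKM in Ctrl and 1.67, 1.53 and 1.39 FPKM in ZA (adjusted p = 0.0740). The 6 eosinophil markers summed to 4.94 to 5.49 FPKM in Ctrl and 3.85 to 4.28 FPKM in ZA, without overlap, and most of this gap came from Prg2, with 2.32, 2.10 and 2.11 FPKM in Ctrl and 1.11, 1.59 and 1.34 FPKM in ZA. The eosinophil peroxidase gene Epx was below 0.05 FPKM in every library. The 9 macrophage markers summed to 23737 to 27633 FPKM in Ctrl and 24617 to 28123 FPKM in ZA, and most of this sum was Lyz2. Of the 9, 4 were higher in ZA without overlap, beside 11.4% of all genes tested. An unadjusted p-value under 0.05 was found for 3 of the 9, all higher, beside 7.49% of all genes tested. Stromal markers, 6 in number, summed to 18.3 to 32.8 FPKM in Ctrl and 16.6 to 23.6 FPKM in ZA, with 4 of 4 tested below 0, and 8 mast cell and basophil markers to 2.47 to 2.96 FPKM over all libraries. The part of these cells in the difference of Cyp4f18 and Slco2b1 was not tested.

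**Figure D4:**
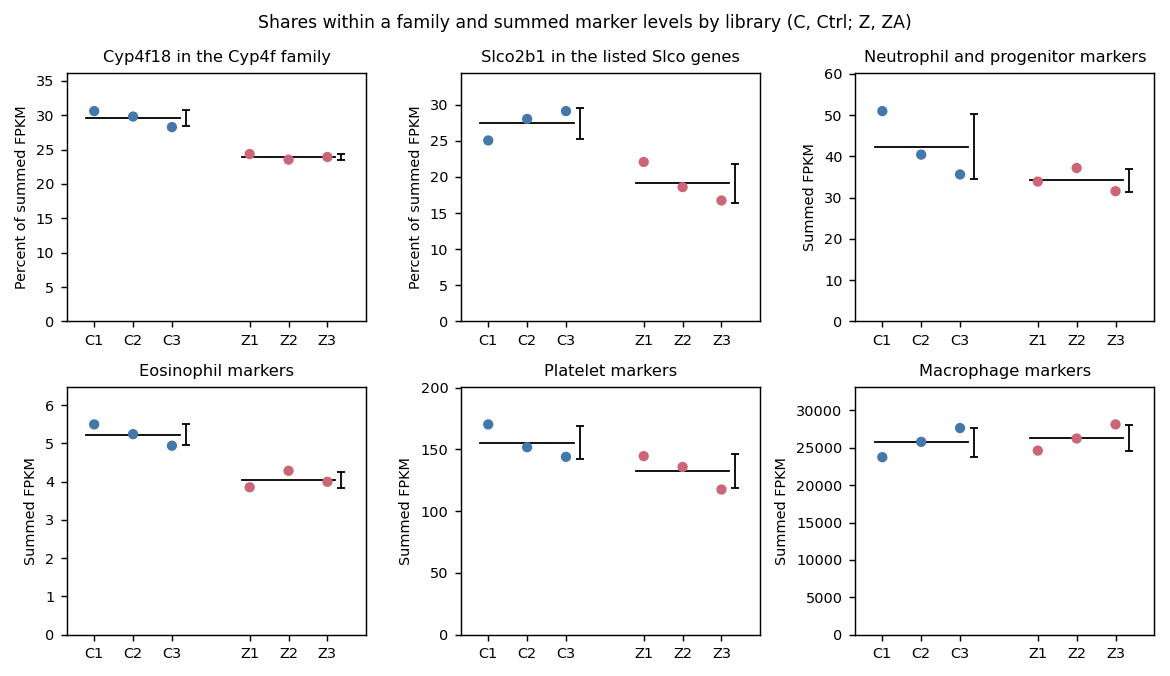
Percent of the summed FPKM of the Cyp4f family from Cyp4f18 and of the listed Slco genes from Slco2b1, and the summed FPKM of 4 marker lists, in each Ctrl (C, blue) and ZA (Z, red) library, with group means (lines) and SD of 3 libraries (bars). The share of Cyp4f18 is 28.3% to 30.6% in Ctrl and 23.5% to 24.4% in ZA, and the eosinophil sums are apart while the neutrophil, platelet and macrophage sums overlap.

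Over the 6 libraries Cyp4f18 and Slco2b1 had a Pearson correlation of 0.96 on the log2(FPKM + 1) scale, with the difference between the groups contained in it, given without a test. The 5 tested genes most like Cyp4f18 by this measure were Reps2, Incenp, Cnn2, Psma3 and Rps6ka2, with correlations between 0.992 and 0.996. Incenp encodes a part of the chromosomal passenger complex, Cnn2 an actin-binding calponin and Psma3 a proteasome subunit. The 5 most like Slco2b1 were Atp6v1b2, Mcm5, Pak4, F11r and Rrm2, with correlations between 0.985 and 0.997. Atp6v1b2 encodes a subunit of the vacuolar proton pump, while Mcm5 and Rrm2 act in DNA replication and nucleotide supply. All 10 of these similar genes had groups that did not overlap and were lower in ZA, as for 6.76% of all genes tested. Their choice by correlation with genes that were lower in ZA largely fixes this, so that it is a description. The log2 fold changes went from -0.31 for Rrm2 and Mcm5 to -0.05 for Incenp. Slco2b1 stood at place 36 among the genes most like Cyp4f18, and Cyp4f18 at place 36 among those most like Slco2b1.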

How the data were processed

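RNA of 6 BMDM cultures, 3 Ctrl and 3 taken 12 h after ZA, was sequenced as 150 bp pairs. The authors deposited 1 table of FPKM values, fragments scaled by gene length and library total, a normalized unit and not a count. The submitters' processing notes name the build mm9; the aligner, the counting program and the annotation are not given in the sources used here. Among its 35434 rows, 11 were intact, and in the rest symbol and values ran together. Cuts between values were found from the numbers' form and the rule that each FPKM is a whole number of fragments for a length of 20 to 250000 bases and the library's total. This gave 35360 rows, those of all 10 genes among them, with 74 left out. The 11 intact rows came back the same, and in a simulation of 1500 rows 1498 came back exact, 0 wrong and 2 were dropped.

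Values were compared as log2(FPKM + 1), which understates changes of low genes, with limma 3.58.1 (lmFit, eBayes with a trend) in R 4.3.3, two-sided, for genes whose mean FPKM was 1 or more. On simulated data 100% of 200 genes changed 2-fold among 9794 were called, with 12 unchanged genes called, and 0 when none was changed. The simulation used the same dispersion for all genes and larger changes than those of the 10 genes. It does not measure how often such smaller changes would be called. At the median length of 3424 bases, 3 fragments are an FPKM of 0.021; SDs from counting cover counting error only. Libraries of a group were not duplicates (chi-square per gene 3.52 to 9.73). The 10 genes, the lists and the tests were chosen with earlier results of these data known. Named genes are the 10, genes of the eicosanoid list with an adjusted p-value under 0.05, the 2 others of each role with the largest moderated statistic, the highest tested gene of each role, and the 5 most like Cyp4f18 and Slco2b1; further genes were named after their values were seen, as family members, receptors or carriers. Promoters were from RefSeq (GRCm38.p6), exon lengths and overlaps from GENCODE M21, and no coordinates were converted. After the levels had been seen, levels were also computed from the recovered fragments on GENCODE M21 exon lengths. Tables were made with Python, NumPy and pandas. Alternatives were a pseudocount of 0.1, no filter or a minimum of 5 FPKM, median centring, quantile normalization, the variance prior fitted with no trend, the replicate block, voom with TMM factors on the recovered fragments, and leaving out each library.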

Additional observations from a re-analysis of the deposited data

How the results depend on the processing

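The count of genes called among all tested was 36 and depended on the processing: it was 1 without the filter, 20 with quantile normalization, 1 with a variance prior without a trend, 125 with voom on the recovered fragments, and between 0 and 25 when a library was left out (1 for Ctrl 1, 1 for Ctrl 2, 6 for Ctrl 3, 25 for ZA 1, 0 for ZA 2 and 4 for ZA 3); the cause was not tested. With the replicate number as a block it was 78. The numbers were not taken to pair the libraries, since no source says that same-numbered cultures belong together. The deviations of same-numbered libraries correlated at 0.285, 0.0394 and 0.281, which does not settle whether they share a source.

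The log2 fold change of Cyp4f18 was between -0.38 and -0.29 over 14 alternatives, and that of Slco2b1 between -0.41 and -0.29 over 13, since it did not reach a mean FPKM of 5. Over the alternatives 10 to 17 eicosanoid genes had an unadjusted p-value under 0.05, beside 12, with Cyp4f18 and Slco2b1 counted. Some values near 0 changed sign when a library was left out: Lta4h ranged from -0.0449 to 0.0385, above 0 when Ctrl 1, ZA 2 or ZA 3 was left out, Ltc4s from -0.279 to 0.0418, above 0 without ZA replicate 3, and Akr1b3 from -0.0246 to 0.0128, above 0 when Ctrl 1 or ZA 1 was left out. With voom, Cotl1 and Mgll passed the adjusted threshold (adjusted p = 0.0353 and 0.0384, from the limma fit on voom values, not on log2(FPKM + 1)). Centring on the median and quantile normalization moved the median log2 fold change of all genes from 0.01 to -0.003 and 0.0007. Depth limits Ptgs2, Alox5 and Ltc4s, whose lowest libraries held 37, 114 and 112 fragments.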
